A study of Mus musculus with 8 samples.

Results

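Respiratory complex I, the NADH:ubiquinone oxidoreductase of the mitochondrial inner membrane, was followed here through the genes whose symbols begin with Nduf. They were taken from the probe sets that carry a single gene symbol, and where a gene had more than 1 such probe set the one with the highest mean over the 8 arrays was read. This gave 43 of the 19938 genes measured, 36 of them named as subunits and 7 named as assembly factors (Ndufaf). The samples were livers of male mice 8 weeks old, run on 8 arrays. The 4 deleted livers had lost Hmgb1, a DNA-binding chromatin protein, through Albumin-Cre, a recombinase under a promoter active in hepatocytes. The 4 control livers carried floxed Hmgb1 and were littermates, on a C57Bl/6 background reached by 5 backcrosses. The titles name Cre for the deleted group only, so an effect of Cre and an effect of losing Hmgb1 cannot be told apart. The labels contradict themselves, since one field calls the tissue whole liver and another liver stellate cells, and another field gives the strain as Balb/c. No label says that the arrays come from separate animals, so each p-value measures the spread between these arrays, which may be technical.

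Complex I takes electrons from NADH, passes them along iron-sulfur clusters to ubiquinone and pumps protons out of the matrix. Its matrix arm holds the core subunits that bind NADH and the clusters, its membrane arm holds the proton pumps encoded by mitochondrial DNA, and accessory subunits encoded in the nucleus surround both arms. Assembly factors bind the intermediates while the enzyme is built and are absent from the finished complex. Liver cells, hepatocytes above all, are rich in mitochondria and use this chain to reoxidise the NADH made by fatty acid and amino acid breakdown.

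The upstream sequence of 4 members is shown because the values below turn on them: Ndufaf3 had the largest positive difference of the 43 genes, Ndufs4 the most negative, Ndufb6 the second most negative, and Ndufs5 the value that moved most with 1 array. The sequences were read from the RefSeq promoter table of GRCm38.p6, which had an entry for 38 of the 43 members, and each is the part before the annotated start that lies in no annotated gene. For Ndufaf3 that part is only 47 bases long, because the annotation of its neighbour Dalrd3 begins there. Capitals mark matches to the searched motifs described next.
Ndufaf3, chr9:108567437-108567483, minus strand: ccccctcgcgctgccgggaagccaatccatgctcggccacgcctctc
Ndufs4, chr13:114388095-114388344, minus strand: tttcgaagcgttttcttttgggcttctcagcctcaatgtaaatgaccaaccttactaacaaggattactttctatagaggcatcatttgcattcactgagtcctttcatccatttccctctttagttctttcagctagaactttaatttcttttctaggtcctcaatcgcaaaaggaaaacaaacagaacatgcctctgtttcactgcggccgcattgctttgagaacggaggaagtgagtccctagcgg
Ndufb6, chr4:40279422-40279671, minus strand: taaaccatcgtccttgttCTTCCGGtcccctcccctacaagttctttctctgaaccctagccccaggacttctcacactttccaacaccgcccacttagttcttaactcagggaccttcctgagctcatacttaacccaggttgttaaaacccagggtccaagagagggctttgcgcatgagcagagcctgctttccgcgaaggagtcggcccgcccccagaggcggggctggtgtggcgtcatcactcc
Ndufs5, chr4:123718187-123718436, minus strand: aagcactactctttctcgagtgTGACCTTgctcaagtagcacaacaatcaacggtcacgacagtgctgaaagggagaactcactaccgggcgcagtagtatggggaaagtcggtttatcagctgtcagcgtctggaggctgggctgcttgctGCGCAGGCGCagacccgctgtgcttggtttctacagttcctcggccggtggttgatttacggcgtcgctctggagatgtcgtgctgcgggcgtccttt

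Each promoter window of 300 bases, 250 before the start and 50 after it, was searched on both strands for motifs of factors known to act on genes of the respiratory chain. The motif of NRF1, which is GCGCA and GCGC with any 1 base between them, was present in 9 of the 40 promoter entries of members (22.5%) against 4.60% of all 32851 entries. That of YY1, AAGATGGC, was present in 7 of 40 (17.5%) against 2.75%. It was met in 7 of the 32 subunit genes with an entry and 0 of the 6 assembly factors, too few factors to compare. Ndufs4 had it at 35 to 42 bases after its start. The ETS motif CCGGAAG was present in 5 of 40 (12.5%) against 8.86%, Ndufb6 among them, and AAGGTCA, bound by estrogen-related receptors, in 2 of 40 (5.00%) against 4.72%. The capitals before Ndufs5 are a receptor match and an NRF1 match, and those before Ndufb6 an ETS match, at positions −232 to −226 from the start. These are matches of letters and do not show that a factor binds.

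The arrays were checked first. Median log2 intensity per array ran from 6.08 to 6.22, and pairs of arrays correlated at 0.987 to 0.998. Control 1 stood apart, at −26.6 on the first principal component against −11.4 to 11.7 for the other 7 arrays. Hmgb1 fell in the deleted livers, to 4.91, 4.20, 4.53 and 4.74 against 5.35, 5.42, 5.45 and 5.78 in the controls, a change of −0.91 in log2 units (SE 0.14, limma adjusted p = 0.0216). The call was lost without deleted 3 (adjusted p = 0.0730), deleted 4 (0.0687), control 3 (0.0561) or control 4 (0.0797). The hepatocyte product albumin had log2 intensities of 13.26 to 14.03, and 11 hepatocyte markers had a mean deviation from their own means of −0.33 to 0.065 in deleted and 0.051 to 0.087 in control livers, with deleted 4 lowest. All 12 stellate cell markers were measured, with log2 intensities from 6.65 for Des to 11.59 for Dcn. Their mean deviations were −0.055 to 0.053 in deleted and −0.071 to 0.095 in control livers. Such deviations compare arrays with each other and do not tell which tissue was run. In whole tissue, fewer cells of a type and less RNA per cell cannot be told apart.

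No complex I gene passed the threshold between deleted and control livers. With limma and Benjamini-Hochberg adjustment over all genes, 0 of 43 members had an adjusted p under 0.05, where 0.692% of all genes did, and 1 of 43, Ndufaf3, had an unadjusted p under 0.05, where 9.46% of all genes did (4.93% as higher). Of the 36 subunits 22 were lower and 14 higher in the deleted livers, against 49.8% of all genes lower and 49% higher, but 16 were lower and 20 higher after quantile normalization again and 17 and 19 without deleted 3. Their median log2 fold change was −0.038, which turned to 0.015 and 0.0017 in these alternatives, where the median over all genes was 0.013 and −0.0067. After quantile normalization again 43.8% of all genes were lower and 56.1% higher, close to the subunits' split, and without deleted 3 these shares were 53.1% and 46.4%. Of the 7 assembly factors 2 were lower and 5 higher, with a median of 0.12, while the median over all genes tested was 0. The differences were small: the 95% interval lay within 1.5-fold for 43 of 43 members, as it did for 97.2% of all genes.

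**Figure D1:**
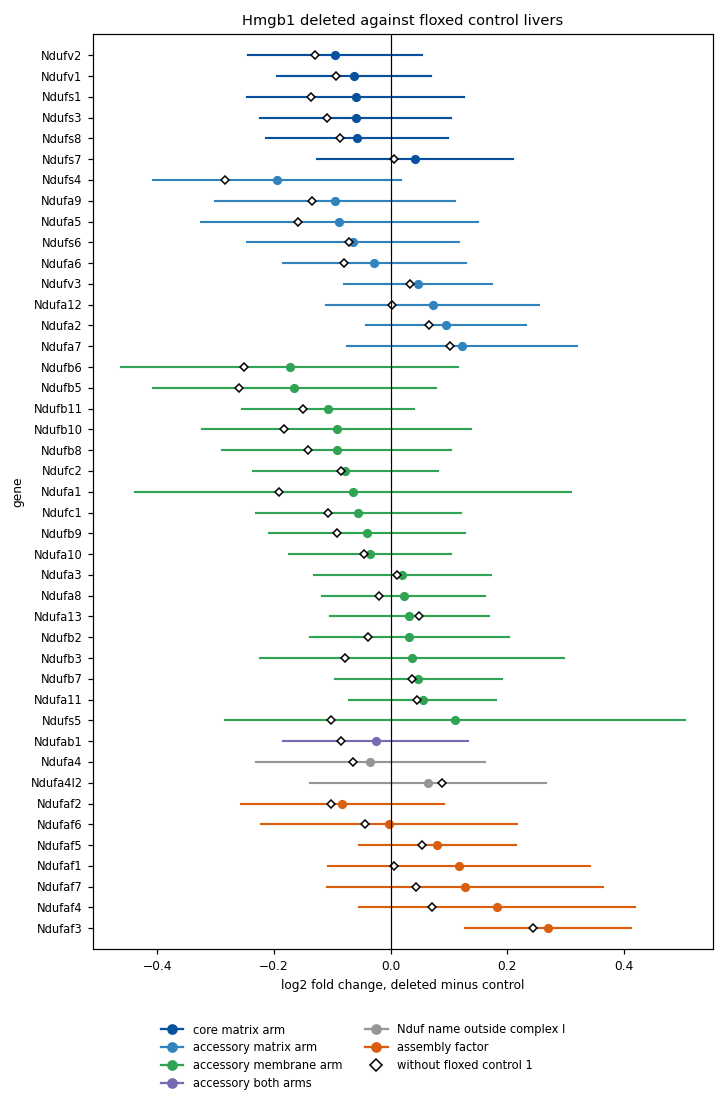
Log2 fold change (deleted minus control) on the horizontal axis for the 43 complex I genes, coloured by role; filled points and bars are the limma estimate and its 95% interval over 8 arrays, and open diamonds the estimate without control 1. The interval of Ndufaf3, from 0.13 to 0.41, is the one that does not include 0, and most subunit estimates move to the left without control 1.

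The core subunits of the matrix arm carry the cofactors. Ndufv1, which binds NADH and its flavin, read 10.82, 10.92, 10.80 and 10.82 in deleted livers and 10.81, 10.94, 10.94 and 10.92 in controls. Deleted 2 equalled control 4 at 10.92, so the groups met even without control 1. The log2 difference was −0.063 (SE 0.060, limma adjusted p = 0.921). Ndufs1, which holds several of the iron-sulfur clusters, read 9.15, 9.32, 9.11 and 9.22 against 9.03, 9.33, 9.34 and 9.34. Here controls 2 to 4 lay above every deleted array and control 1 below all of them. Its log2 fold change was −0.060 with all arrays and −0.14 without control 1 (limma adjusted p = 0.966 and 0.388). Ndufv2, an iron-sulfur subunit beside Ndufv1, had −0.095 and without control 1 −0.13, with the same split of controls 2 to 4 from the deleted livers. Ndufs3 had −0.060 and Ndufs8, which carries a pair of iron-sulfur clusters, −0.058. Both came out above 0 after quantile normalization again, at 0.0005 and 0.013. Ndufs7, which carries the last cluster before ubiquinone, was the 1 core subunit above 0, at 0.043 (SE 0.076). Its deleted 4 array read 12.01 against 12.26 to 12.28 on the other deleted arrays, and the difference was 0.11 without deleted 4 and −0.013 without control 1 and deleted 3. After quantile normalization again the Ndufs7 difference was 0.145 (limma adjusted p = 0.238).

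Of the 6 core subunits measured 5 were lower and 1 higher (3 and 3 after quantile normalization again), and of the 9 accessory subunits of the matrix arm 5 and 4 (3 and 6 without deleted 3). Ndufs4, which helps to hold the NADH-binding end of the arm in place and whose loss in mice gives a Leigh-like brain disease, had the most negative difference of the 43 genes. It read 10.90, 10.92, 10.66 and 10.89 in deleted livers and 10.77, 11.17, 11.09 and 11.12 in controls. Controls 2 to 4 lay above all 4 deleted arrays, and control 1 lay among the deleted arrays. The log2 fold change was −0.195 (SE 0.096, 95% interval −0.41 to 0.018, limma adjusted p = 0.608), a level 12.6% lower. Without control 1 it was −0.28 (SE 0.077, adjusted p = 0.0993), and without control 1 and deleted 3 together −0.22 (adjusted p = 0.135). Ndufa7 had the largest positive difference among subunits, 0.12, followed by Ndufs5 of the membrane arm and Ndufa2, at 0.11 and 0.095. Ndufa12, the subunit that takes the place of the assembly factor Ndufaf2, had 0.073, and 0.0017 without control 1. Ndufv3 had 0.048. Ndufa9, Ndufa5, Ndufs6 and Ndufa6 lay between −0.095 and −0.028.

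The 18 accessory subunits measured in the membrane arm split into 10 lower and 8 higher, 7 and 11 after quantile normalization again and 8 and 10 without deleted 3. Ndufb6 read 11.25, 11.31, 10.70 and 11.19 in deleted livers against 11.05, 11.34, 11.42 and 11.33 in controls, so that deleted 3 was far the lowest array. The difference of −0.17 (SE 0.13, limma adjusted p = 0.849) became −0.035 without deleted 3 and −0.25 without control 1 (adjusted p = 0.423). Ndufb5 read 10.40, 10.57, 10.14 and 10.40 against 10.26, 10.65, 10.66 and 10.60. Again deleted 3 and control 1 were the lowest arrays of their groups, and the log2 fold change moved from −0.165 to −0.086 without deleted 3 and to −0.26 without control 1 (limma adjusted p = 0.791, 0.999 and 0.218). Ndufb11 had −0.11 and read 11.54 to 11.71 in deleted and 11.61 to 11.81 in control livers. A second probe set of it gave −0.105. Ndufb8 and Ndufc2 had −0.093 and −0.078, which became −0.015 and −0.016 without deleted 3, and Ndufc2 had 0.032 after quantile normalization again. Ndufs5, which lies on the intermembrane space side, showed how far 1 array could move a value. It read 7.80, 8.09, 8.15 and 8.11 in deleted livers and 7.29, 8.13, 8.22 and 8.07 in controls. Control 1 was 0.78 below the next control, and the difference of 0.11 (SE 0.18, limma adjusted p = 0.970) became −0.10 without it. Ndufb7 and Ndufa11 had 0.048 and 0.055. The other members of the arm, Ndufb10, Ndufa1, Ndufc1, Ndufb9, Ndufa10, Ndufa3, Ndufa8, Ndufa13, Ndufb2 and Ndufb3, lay between −0.093 and 0.038.

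Some Nduf names stand outside this grouping. Ndufab1, the mitochondrial acyl carrier protein, is bound in both arms and also serves fatty acid synthesis, and had −0.025. Ndufa4, now counted as a subunit of complex IV, had −0.035. Its paralogue Ndufa4l2, known as a hypoxia-induced gene, had 0.065, and −0.013 without deleted 1. Without Ndufa4 and Ndufa4l2 the median over the other 34 subunits was −0.048, with 21 lower and 13 higher. Further probe sets of Ndufs3, Ndufa11, Ndufab1, Ndufb11 and Ndufc1 gave log2 fold changes of −0.065, 0.105, 0.025, −0.105 and −0.093, of the same sign as those read except for Ndufab1. Both probe sets shared by Ndufb4 and Ndufb4b had −0.105 and −0.10. The probe set shared by Ndufs5 and Ndufs5-ps had −0.07, opposite in sign to the 0.11 of the probe set of Ndufs5 alone. How far probes of such genes also read near-identical copies was not tested. The annotation of 6 members, Ndufa1, Ndufa13, Ndufa2, Ndufa4l2, Ndufb11 and Ndufv2, overlaps that of another protein-coding gene.

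Of the 7 assembly factors, Ndufaf3 stood out by its spread. Ndufaf3, which works with Ndufaf4 on the ubiquinone-binding module, read 9.21, 9.20, 9.18 and 9.20 in deleted livers and 8.85, 8.83, 9.0 and 9.03 in controls. The deleted arrays lay within 0.03 of each other and above all controls, the 1 member of 43 whose groups did not overlap, where 5.57% of all genes did not (3.28% as higher). The difference was 0.27 in log2 units (SE 0.064, 95% interval 0.13 to 0.41, limma adjusted p = 0.111), a level 20.6% higher, and it did not pass the threshold. It was 0.24 without control 1, and 0.24 to 0.30 with each array left out in turn (adjusted p = 0.102 to 0.300). Dalrd3, which neighbours Ndufaf3 across the 47 bases shown above, had 0.073 (SE 0.070, adjusted p = 0.923), with overlapping groups.

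Ndufaf4 read 7.91, 7.68, 7.81 and 7.75 in deleted livers and 7.27, 7.79, 7.72 and 7.64 in controls, a difference of 0.18 (SE 0.11, limma adjusted p = 0.727). Control 1 was the lowest array, the other controls overlapped the deleted arrays, and without control 1 the difference was 0.071. Ndufaf1, part of the membrane arm assembly complex with Acad9, Ecsit and Tmem126b, read 9.43, 9.37, 9.31 and 9.29 against 8.90, 9.29, 9.40 and 9.34. Its difference of 0.12 became 0.0067 without control 1. Ndufaf7, a mitochondrial methyltransferase, had 0.13, and 0.043 without control 1. Ndufaf5, which hydroxylates Ndufs7, had 0.080 and 0.053, at dim values of 4.94 to 5.15. Ndufaf2, the stand-in for Ndufa12, had the most negative difference of the factors, at −0.083 and −0.10. Ndufaf6, an early factor of the membrane arm, had −0.0025 and −0.043, and lay above 0 in 8 alternatives. Without control 1 the median of the 7 factors was 0.043 in place of 0.12.

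**Figure D2:**
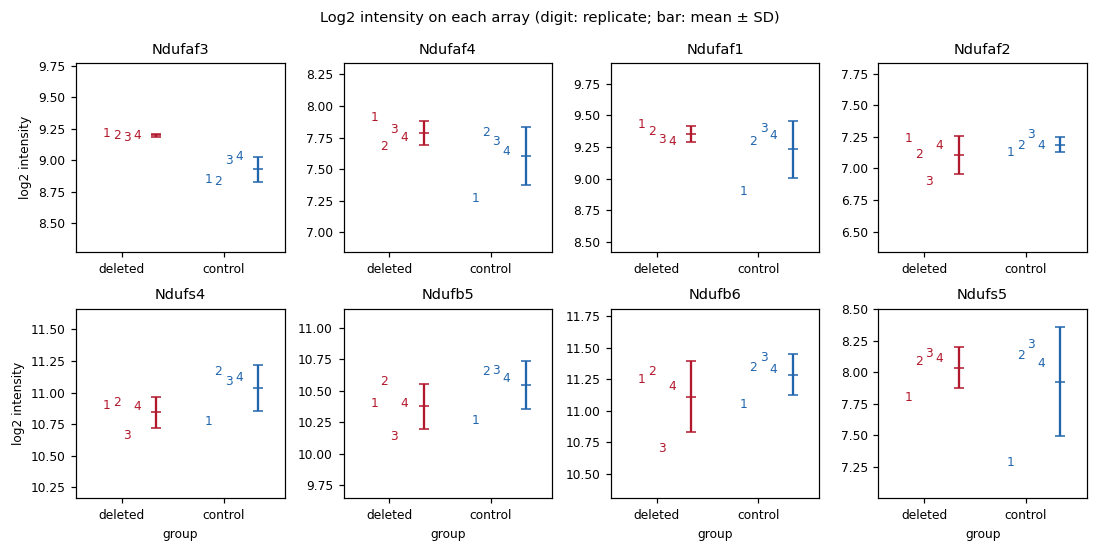
Log2 intensity of 4 assembly factors (top row) and 4 subunits (bottom row) on each array; digits are replicate numbers, bars the mean ± SD of 4 arrays, and every panel spans the same range. Ndufaf3 separates the groups, at 9.18 to 9.21 in deleted and 8.83 to 9.03 in control livers, while for Ndufs4, Ndufb5 and Ndufb6 deleted 3 and control 1 lie lowest in their groups.

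Assembly genes named otherwise were read from a list. Of 12 measured, 8 were higher, 3 lower and 1 equal, 0 passed the threshold, and 2, Acad9 and Nubpl, had an unadjusted p under 0.05, against 49% of all genes higher, 0.692% past the threshold and 9.46% with such a p. Without control 1 there were 6 lower and 6 higher, with a median of −0.013 in place of 0.036. Acad9, an acyl-CoA dehydrogenase relative that works in assembly, read 8.54, 8.66, 8.84 and 8.64 in deleted livers and 8.05, 8.29, 8.35 and 8.48 in controls, without overlap. Its log2 fold change was 0.38 (SE 0.097, limma adjusted p = 0.139) and 0.30 without control 1 (adjusted p = 0.112). It passed after quantile normalization again (adjusted p = 0.0410) and with the replicate number as a block (0.0442). Nubpl, which supplies iron-sulfur clusters to the enzyme, had 0.195 (SE 0.088, adjusted p = 0.524), with an unadjusted p of 0.0489 that became 0.108 without control 1. Aifm1, a flavoprotein needed for respiratory chain biogenesis, had −0.085 (limma adjusted p = 0.844). Of the subunits encoded by mitochondrial DNA, a probe set annotated as ND3 read 12.02, 12.14, 11.73 and 11.92 in deleted livers and 12.12, 12.14, 12.33 and 12.27 in controls. Deleted 2 lay above control 1, so the groups overlapped. The difference was −0.26 (SE 0.091, limma unadjusted p = 0.015, adjusted p = 0.319). It was −0.29 without control 1 and −0.19 without deleted 3 (limma adjusted p = 0.181 and 0.626). A second probe set with that name had −0.16.

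Subunit levels varied together from array to array within both groups. Deleted 3 held the lowest of the 8 values for 18 of 36 subunits, against 7.79% of all genes, and control 1 for 10 of 36, against 22.7% of all genes. Among the 4 controls, control 1 was lowest for 32 of 36 subunits and 6 of 7 assembly factors, where 36.9% of all genes were lowest there. Among the 4 deleted arrays, deleted 3 was lowest for 23 of 36 subunits and 3 of 7 factors, where 17.8% of all genes were. With each gene set relative to its own mean over the 8 arrays, the subunit mean was −0.12 on deleted 3 and −0.13 on control 1 and between −0.0087 and 0.076 on the other 6 arrays. The groups overlapped, at −0.013 ± 0.081 (SD, n = 4) in deleted and 0.013 ± 0.099 (SD, n = 4) in control livers. After quantile normalization again these arrays were still lowest, at −0.11 and −0.065. Hepatocyte markers had mean deviations of −0.0065 on deleted 3 and 0.056 on control 1, and the array lowest for them, deleted 4, had a subunit mean of −0.0087. The part of hepatocyte content in the subunit levels was not tested.

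**Figure D3:**
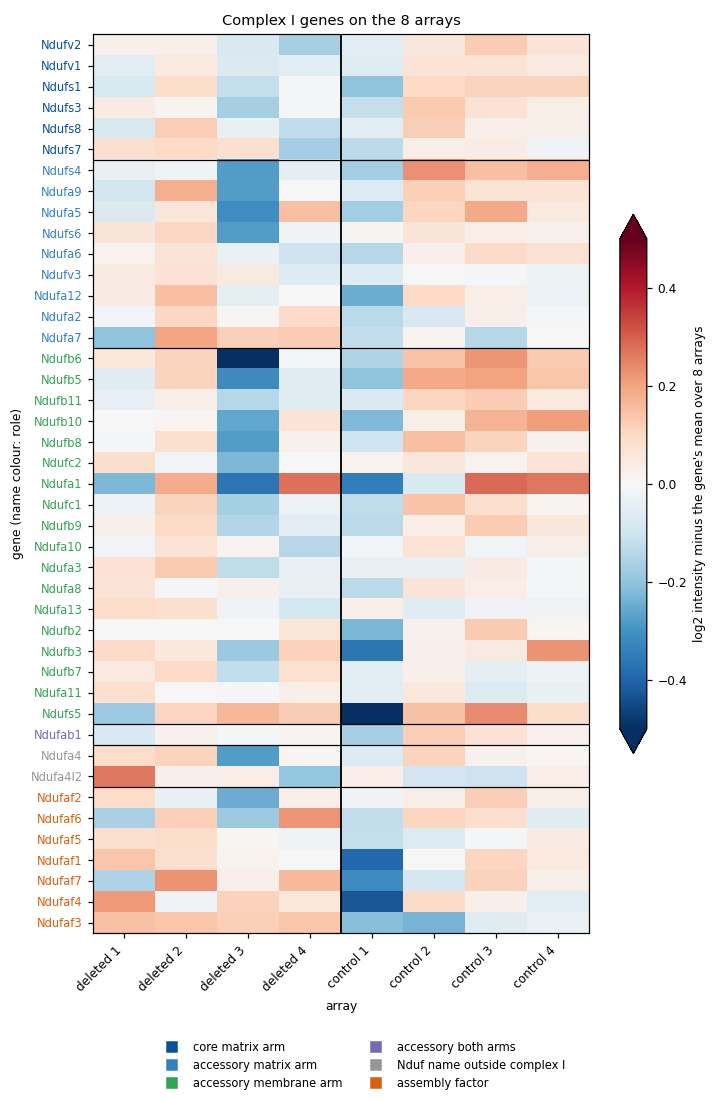
Log2 intensity of each of the 43 genes minus its mean over the 8 arrays (colour; the scale ends at −0.5 and 0.5 and arrows mark values beyond), with arrays in columns, deleted left of the line, and genes in rows grouped by role. Deleted 3 and control 1 are blue for most subunits, and control 1 also for most assembly factors. For Ndufaf2 control 1, at 7.13, lies near the gene's mean, and deleted 3, at 6.90, is lowest.

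Subunits were then set against assembly factors on each array. The subunit mean minus the factor mean was −0.050, −0.0091, −0.10 and −0.092 on deleted 1 to 4 and 0.096, 0.087, 0.018 and 0.051 on control 1 to 4. All 4 deleted arrays lay below all 4 controls, with group means of −0.063 ± 0.042 (SD, n = 4) and 0.063 ± 0.036 (SD, n = 4), and a difference of −0.13 on the log2 scale. Control 1, the lowest array for subunits, was lower still for factors, at −0.23, so that its difference stood with the other controls. The difference was −0.11 without control 1 and −0.10 with control 1 and deleted 3 both left out. It stayed below 0 in each alternative tried. By construction it was unchanged with all probe sets, arrays centred on medians, the variance trend, the robust prior and the replicate block, so these do not test it. After quantile normalization again control 3 read 0.013 for subunits and 0.034 for factors, beside 0.045 and 0.078 on deleted 2. The value of control 3 was thus below 0, as on the deleted arrays, and the gap between the groups was narrow. The difference is a description of genes chosen by name and was not tested. Ndufaf3 had the largest difference of the 7 factors and was the 1 factor whose own groups did not overlap. The separation of the arrays rests on Ndufaf3. With Ndufaf3 left out of the factor mean, control 3 lies just below deleted 2 and the groups overlap. The difference between the group means then stays below 0. The mean of sinusoidal endothelial markers also separated the groups, at −0.20 to −0.077 against 0.041 to 0.19. All 10 measured were lower in the deleted livers, and 1, Clec4g, passed the threshold (−0.615, limma adjusted p = 0.0063). The 3 erythroid markers measured were also lower, with mean deviations of −0.25 to −0.12 against 0.037 to 0.27. Of these Alas2 and Car1 had −0.545 and −0.44 (limma adjusted p = 0.119 and 0.108), and both passed the threshold without control 1 (0.0028 and 0.014). Slc4a1 had only −0.073, and 0.023 without control 1. The 5 cholangiocyte markers lay at −0.21 to 0.023 against 0.029 to 0.093, with 3 of them lower. Of the 11 hepatocyte markers 10 were lower, with overlapping groups, and 6 after quantile normalization again. Groups also overlapped for Kupffer cell markers (4 lower, 6 higher), at −0.059 to 0.026 against −0.057 to 0.034. They overlapped too for lymphocyte markers (4 lower, 4 higher), at −0.094 to 0.046 against −0.068 to 0.042. The part of these cell types in the difference was not tested.

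**Figure D4:**
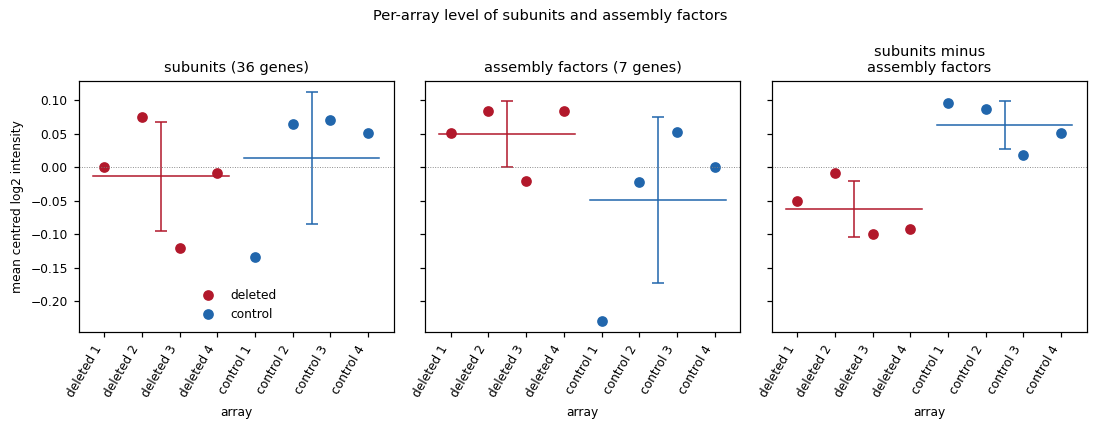
Mean log2 intensity per array, each gene centred on its mean over the 8 arrays, for 36 subunits, 7 assembly factors and the difference between them; horizontal lines are group means and bars the SD of 4 arrays. The groups overlap for subunits and for factors, and do not overlap for the difference, at −0.10 to −0.0091 in deleted and 0.018 to 0.096 in control livers. The factor mean includes Ndufaf3, whose own groups do not overlap, and without Ndufaf3 the groups overlap for the difference.

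Leaving out control 1 drew the subunits to the lower side without bringing any past the threshold. Control 1 was the lowest control for 32 of 36 subunits, so leaving it out lowers their fold changes by construction. The subunits also varied together from array to array, so the counts below are not of separate observations. Without control 1, 26 of 36 were lower and 10 higher, against 45.1% and 54.6% of all genes. The median log2 fold change was −0.085 against 0.012 for all genes. An adjusted p under 0.05 was reached by 0 of 43 members and 1.61% of all genes (limma). An unadjusted p under 0.05 was reached as lower by 3 subunits, Ndufs4, Ndufb5 and Ndufb11, or 8.33% of the 36, against 8.59% of all genes, and as higher by Ndufaf3, against 5.42%. In 6 of 36 subunits every deleted value lay under controls 2 to 4, namely Ndufs1, Ndufv2, Ndufs4, Ndufb5, Ndufb6 and Ndufb11, where 7.66% of all genes did. Every Ndufaf3 value lay above those controls, where 5.65% of all genes did. With deleted 3 also left out, 25 of 36 subunits were lower, against 48.4% of all genes, with a median of −0.057, and 0 members had an adjusted p under 0.05, against 1.12% of all genes.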

How the data were processed

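RNA of 4 deleted and 4 control livers was run on GeneChip whole-transcript arrays after 150 ng was amplified and biotin labelled, per the labels' protocols. The deposited values are log2 intensities made by the authors with RMA, per the submitters' processing notes. The sources used here give neither its version nor a genome build. Of 35556 probe sets, 21789 had 1 gene symbol, 1621 several and 12146 none in GEO's annotation, and only the first kind was tested. Each of 19938 genes kept its brightest probe set. Groups were compared with limma 3.58.1 in R 4.3.3 (lmFit, eBayes, 2-sided), with Benjamini-Hochberg adjustment over all genes, and an adjusted p under 0.05 counted as passing. Log2 fold changes subtract control from deleted means, and centred values are log2 values minus a gene's mean over the 8 arrays. The script was tested on simulated arrays. The members and lists were chosen with earlier results of these data known. Genes were named by a rule: all 7 factors, the core subunits, the 8 smallest p in each direction among subunits, any member whose groups did not overlap, and the 3 smallest p among other assembly genes, with the mitochondrially encoded gene listed. Other members are named where they complete a group. The motifs and the sequences shown were chosen after values were seen. Alternatives changed the filter, the choice of probe set, the scaling, the variance model, the weights and the block, and left out each array. Leaving out control 1 and deleted 3 together, and leaving out Ndufa4 and Ndufa4l2, are alternatives chosen after seeing the data. The number of arrays limits the precision. Sequences and figures were made with Python 3.11.15 and matplotlib 3.10.9.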

Additional observations from a re-analysis of the deposited data

Results flagged for a closer look

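Within each group, the highest or lowest array was looked at again where its gap to its neighbour took up most of the range of the 4 arrays, past Dixon's 95% critical value. This was met by 9 of 100 groups of 4 values, where chance gives about 1 in 20, or 5, and 5 of the 9 lay on control 1. The groups are not independent, since subunit levels varied together and the subunit mean is made of the same genes. The counts 9 and 5 therefore cannot be weighed against each other. On that array Ndufs1 read 9.03 against 9.33 to 9.34 on the other controls, Ndufb5 10.26 against 10.60 to 10.66, Ndufs5 7.29 against 8.07 to 8.22 and Ndufv1 10.81 against 10.92 to 10.94. The mean of the 36 subunits, relative to each gene's own mean, was −0.13 there against 0.052 to 0.071. In the deleted group Ndufs4 read 10.66 on deleted 3 against 10.89 to 10.92, Ndufs7 12.01 on deleted 4 against 12.26 to 12.28, Ndufb2 7.14 on deleted 4 against 7.08 on each of the others, and Ndufv1 10.92 on deleted 2 against 10.80 to 10.82.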

How the results depend on the processing

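In every alternative tried 0 complex I members passed the threshold. Over all genes 138 passed, and this count was 264 after quantile normalization again, 61 with arrays centred on medians, 526 with array weights, 37 to 321 with each array left out in turn (321 without control 1, 37 without deleted 4) and 223 without control 1 and deleted 3. The share of higher calls moved with scaling, from 59 of 138 to 153 of 264 and 33 of 61. With the replicate number as a block 325 genes passed and 0 members. Deviations of same-numbered arrays correlated at 0.447, 0.065, −0.081 and 0.422, not over 0.1 in every pair, so the numbers were not taken to pair the arrays. Arrays numbered 1 and 4 correlated best with their own number, and those numbered 2 and 3 did not. Hmgb1 ran from −1.01 to −0.77 with each array left out, and with all probe sets it was −0.91 with an adjusted p of 0.0652. With each array left out the subunit median ran from −0.085 to 0.0017, the factor median from 0.043 to 0.17 and subunits minus factors from −0.14 to −0.11. Among 30 named genes other than Hmgb1, 537 comparisons with an alternative gave 2 new calls, both for Acad9, and 16 changes of sign, 0 of them of a called gene. The filter on dim genes removed Ndufaf5, Ndufa4l2, Nubpl and Hmgb1, which have no value there. The cause of these shifts was not tested.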
